A study of Mus musculus with 4 samples.

Results

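Endothelial genes were followed in bulk RNA-Seq of E11.5 nasal process (NP) tissues, as a measure of the vessels in a tissue where transcripts of the PDGF receptors fell. The 10 genes, *Kdr*, *Pecam1*, *Cdh5*, *Tek*, *Tie1*, *Flt1*, *Emcn*, *Cldn5*, *Egfl7* and *Eng*, were found by symbol, and all 10 are among the 13577 genes listed. There were 2 libraries titled control and 2 titled ca-*Acvr1* mutant (n = 2 per group). By the study's methods, both groups carried *P0-Cre*, which recombines in neural crest cells, and the mutant embryos also carried 1 floxed copy of the transgene ca-*Acvr1(A11)*, which encodes a constitutively active form of the BMP receptor ACVR1 under the CAG promoter. Embryos of both sexes were used on a mixed background, from lines made on B6;129S7 (transgene) and C57BL/6J (Cre), and the labels do not say whether a library pools several embryos.

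Titles and genotypes disagree on which group is which. Libraries titled control have ca-*Acvr1(A11)* with *P0-Cre* as their genotype entry, and those titled mutant have *P0-Cre* alone. The titles were used here, and the libraries titled mutant are called mutant libraries in the text and ca-*Acvr1(A11)* in the plots. Should the genotype entries be the correct ones, each direction below turns around. *Acvr1* itself had 21.5 and 23.1 CPM in the control libraries against 24.1 and 12.6 CPM in the mutant libraries (log2 fold change −0.33 ± 0.28 SE, limma adjusted p = 0.786). This does not settle the direction, since the lowest and the highest value both belong to the mutant group. Whether transcripts of the transgene are counted under *Acvr1* in these values was not tested, so *Acvr1* may not be able to tell the groups apart.

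Blood vessels of the face are lined by endothelial cells, which derive from mesoderm, whereas most of the facial mesenchyme and the pericytes around facial vessels derive from cranial neural crest. Endothelial cells grow toward VEGF through the receptors VEGFR2 and VEGFR1, encoded by *Kdr* and *Flt1*, are stabilized by angiopoietins through the receptor TIE2 and its partner TIE1, encoded by *Tek* and *Tie1*, and hold together through the junction proteins VE-cadherin, PECAM1 and claudin 5. Growing vessels release PDGF-B, which recruits pericytes that carry PDGFRβ, while PDGFRα marks the mesenchyme around them.

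The values are CPM (the reads of a gene relative to all reads of its library) from a QuantSeq kit, which collects reads near the 3′ end of a transcript, so that the number of reads does not grow with transcript length. The libraries held 1956831 and 2252586 reads for the controls and 2408827 and 2137027 for the mutants. At this depth 1 read was worth 0.511, 0.444, 0.415 and 0.468 CPM. The 10 endothelial genes had from 3 to 126 reads in a library. *Cldn5* and *Eng* had under 10 reads in at least 1 library, and the values of all 10 genes are whole numbers of reads.

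The summed level of the 10 endothelial genes was 192.7 and 194.4 CPM in the control libraries against 200.51 and 182.5 CPM in the mutant libraries. The control values lie between the mutant values, so the groups overlap. The sums rest on 377, 438, 483 and 390 reads, with exact Poisson 95% intervals of 173.7 to 213.1, 176.7 to 213.5, 183.0 to 219.2 and 164.8 to 201.5 CPM, which cover counting error only. The mean of the 2 libraries was 193.6 ± 1.26 CPM in the control group and 191.5 ± 12.7 CPM in the mutant group (SD, n = 2 each), a ratio of 0.989. In a bulk sample, fewer endothelial cells and less RNA per endothelial cell cannot be told apart, and CPM give a share of the tissue's RNA, not an amount per embryo.

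At an adjusted p under 0.05 from limma, 0 of the 10 endothelial genes were called, where 0.899% of the 12462 genes tested were (112 genes, 38 higher and 74 lower). At an unadjusted p under 0.05 from limma the count was also 0 of 10, where 9.55% of all genes tested passed. It was 0 as well in edgeR and limma-voom, which each tested 8 of the 10 genes, and in DESeq2, at the same unadjusted threshold. The median log2 fold change of the 10 genes was −0.04, with 5 genes higher and 5 lower, beside a median of 0.03 over all genes tested. Without mutant replicate 1 the median was −0.19, and without 1 of the other 3 libraries it lay between 0.01 and 0.04, so that its sign rests on single libraries. The groups did not overlap for 2 of the 10 genes, *Pecam1* and *Egfl7*, where they did not overlap for 38.8% of all genes tested. Without a mean-variance trend limma called 0 of all genes, with 1026 at an unadjusted p under 0.05, so every call given here rests on that trend or on a count test.

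**Figure D1:**
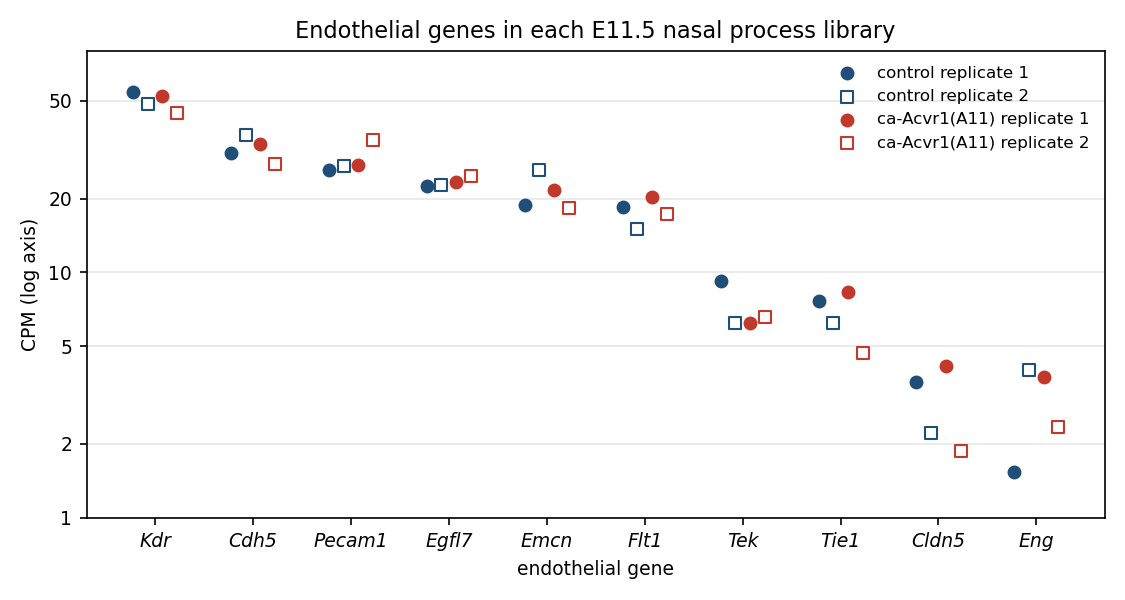
CPM on a log axis for each of the 10 endothelial genes in the 2 control libraries (blue) and the 2 ca-Acvr1(A11) libraries (red), 1 point per library, with genes in order of mean level. The points of the groups overlap for all genes but Pecam1 and Egfl7, and the genes run from Kdr near 50 CPM down to Cldn5 and Eng at a few CPM.

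Among the VEGF receptors, *Kdr* (Entrez 16542), which encodes the main signaling receptor, had 54.2 and 48.4 CPM in controls against 52.3 and 44.5 CPM in mutant libraries. It was the highest of the 10 genes in 4 of 4 libraries, and its groups overlap. The log2 fold change was −0.08 ± 0.19 (SE; limma adjusted p = 0.943). Its 95% interval ran from −0.47 to 0.30, a level between 0.723 and 1.23 times that of control on the scale of CPM + 1. *Flt1* (Entrez 14254), which encodes a receptor that binds VEGF and limits its supply to VEGFR2, partly in a soluble form, had 18.4 and 15.1 CPM in controls against 20.3 and 17.3 CPM in mutant libraries. These values interleave, and the table gives 1 value for the gene, so that the membrane and the soluble form are not separated (log2 fold change 0.16 ± 0.26 SE, limma adjusted p = 0.914).

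The angiopoietin receptor genes were low. *Tek* (Entrez 21687) had 9.20 and 6.22 CPM in controls against 6.23 and 6.55 CPM in mutant libraries, which is 18, 14, 15 and 14 reads. One control library stands above the other 3 libraries, which lie close together (log2 fold change −0.22 ± 0.36 SE, limma adjusted p = 0.916). *Tie1* (Entrez 21846), whose product pairs with TIE2, had 7.67 and 6.22 CPM in controls against 8.30 and 4.68 CPM in mutant libraries. Both its highest and its lowest value come from the mutant group (log2 fold change −0.12 ± 0.37 SE, limma adjusted p = 0.959).

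Of the junction genes, *Cdh5* (Entrez 12562), which encodes VE-cadherin, the adhesion molecule that defines endothelial junctions, had 30.7 and 36.4 CPM in controls against 33.2 and 27.6 CPM in mutant libraries. The groups overlap (log2 fold change −0.14, 95% interval −0.58 to 0.30, limma adjusted p = 0.913). *Pecam1* (Entrez 18613), which encodes an adhesion molecule of endothelial contacts that blood cells share, had 26.1 and 27.1 CPM in controls against 27.4 and 34.6 CPM in mutant libraries. Both mutant values are above both control values, though 1 of them by little (log2 fold change 0.21, 95% interval −0.25 to 0.66, limma adjusted p = 0.850). *Cldn5* (Entrez 12741), which encodes a tight junction protein typical of brain endothelium, had 7, 5, 10 and 4 reads in the 4 libraries, or 3.58 and 2.22 CPM in controls against 4.15 and 1.87 CPM in mutant libraries. Its log2 fold change was 0.00 with a 95% interval from −0.95 to 0.95, its sign differed between scalings, and a change within that interval was not detectable at this depth.

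The remaining 3 genes encode surface and secreted proteins of endothelium. *Egfl7* (Entrez 353156), a secreted factor that guides the assembly of vessel tubes, had 22.5 and 22.6 CPM in controls against 23.2 and 24.8 CPM in mutant libraries, the closest replicates of the 10 genes in control (log2 fold change 0.09, limma adjusted p = 0.955). *Emcn* (Entrez 59308), a sialomucin of capillaries and veins, had 18.9 and 26.2 CPM in controls against 21.6 and 18.2 CPM in mutant libraries. The control values enclose 1 of the mutant values, and the other lies just under them (log2 fold change −0.16, limma adjusted p = 0.914). *Eng* (Entrez 13805), a co-receptor for ligands of the TGF-β family that binds BMP9 in endothelium, had 3, 9, 9 and 5 reads, or 1.53 and 3.995 CPM in controls against 3.74 and 2.34 CPM in mutant libraries. With a 95% interval from −0.80 to 1.13 its log2 fold change of 0.16 says little at this depth.

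Replicates of a group differed in both directions. From control replicate 1 to replicate 2, 5 of the 10 genes were higher and 5 lower, with log2 differences from −0.51 for *Cldn5* to 0.98 for *Eng*. Between the mutant replicates 3 were higher and 7 lower in replicate 2, from −0.84 for *Cldn5* to 0.33 for *Pecam1*. For 10 of 10 genes the log2 difference between the replicates of at least 1 group was larger than that between the groups, where this held for 74.4% of all genes tested. A difference of group means varies less than a difference of single libraries. The median absolute log2 difference of the 10 genes was 0.27 between control replicates and 0.24 between mutant replicates, beside 0.25 and 0.22 over all genes tested, and between the groups it was 0.15, beside 0.20 over all genes tested.

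The make-up of the endothelial signal can be read from the share of each gene. *Kdr* made up 28.1% and 24.9% of the summed CPM in controls against 26.1% and 24.4% in mutant libraries. *Kdr*, *Cdh5*, *Pecam1* and *Egfl7* together made up 69.2% in each control library and 67.9% and 72.1% in the mutant libraries. No test was made of these shares.

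The PDGF receptor genes fell in the same libraries. *Pdgfrb* (Entrez 18596), the receptor of pericytes and mesenchyme, had 53.7 and 75.5 CPM in controls against 18.6 and 23.7 CPM in mutant libraries, with a log2 fold change of −1.55 ± 0.22 (SE; limma adjusted p = 0.000106). *Pdgfra* (Entrez 18595) had 85.3 and 113.6 CPM in controls against 13.2 and 17.9 CPM in mutant libraries. The mutant values of both receptor genes are not whole numbers of reads, while their control values are. For each gene, both mutant values lie below a whole-read value by the same whole number of CPM, for a reason that is not known. The nearest whole-read values with the same decimals are 28.6 and 33.7 CPM for *Pdgfrb* and 33.2 and 37.9 CPM for *Pdgfra*, which gave log2 fold changes of −1.01 and −1.45 (limma adjusted p = 0.00889 and 4.43e-05).

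The difference between each receptor's log2 fold change and that of each endothelial gene was computed from the limma fit, with the errors of the 2 genes taken as independent. The receptors were taken up because their transcripts fell, so these differences and intervals give the size of the gap and do not test it. As deposited, the *Pdgfrb* change was lower than that of each endothelial gene, with differences between −1.34 (*Tek*) and −1.76 (*Pecam1*) on the log2 scale, and the 95% interval of the difference lay below 0 for 10 of 10 genes. With the whole-read values it lay below 0 for 8 of 10 genes and reached 0.05 for *Tek* and 0.02 for *Cldn5*, the other 2. Against *Kdr* the whole-read difference was −0.93 (95% interval −1.49 to −0.36) and against *Cdh5* −0.87 (−1.48 to −0.27). For *Pdgfra* the interval lay below 0 for 10 of 10 genes with both sets of values. Per 100 CPM of summed endothelial signal there were 27.9 and 38.8 CPM of *Pdgfrb* in control and 9.30 and 12.98 CPM in mutant libraries, or 14.3 and 18.5 CPM with the whole-read values. The ratio was lower in both mutant libraries than in both control libraries with either set.

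**Figure D2:**
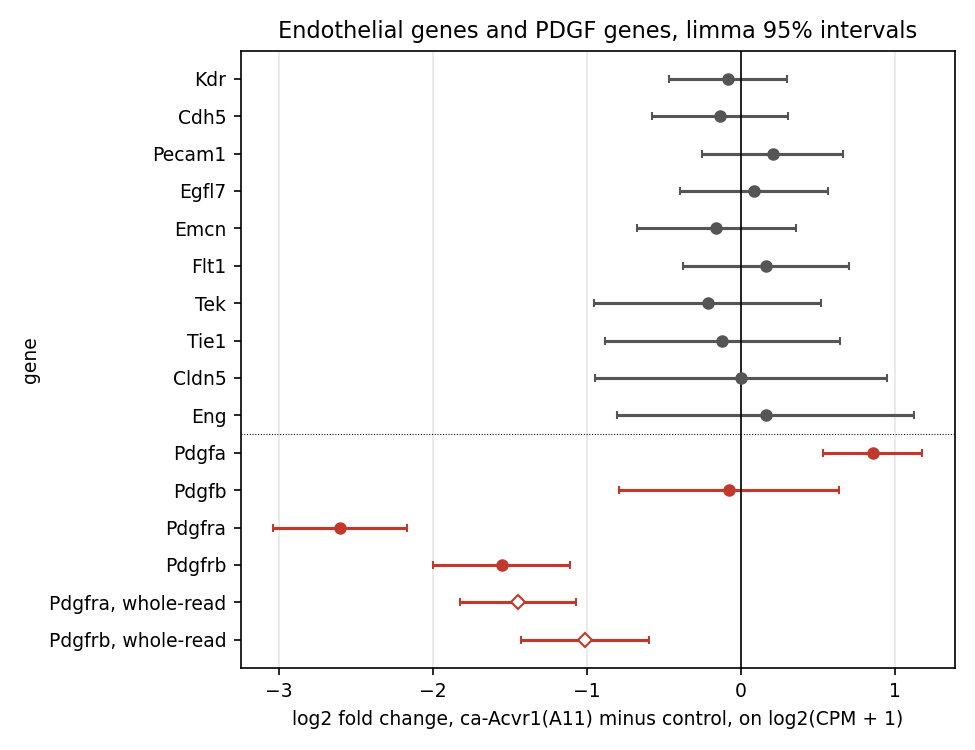
Log2 fold change of ca-Acvr1(A11) against control on log2(CPM + 1) from limma, with 95% intervals, for the 10 endothelial genes (grey), the PDGF genes as deposited (red circles) and the PDGF receptors with the nearest whole-read values (open diamonds). The intervals of all 10 endothelial genes include 0, and those of Pdgfra and Pdgfrb lie below 0 with both sets of values.

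Of the PDGF ligands, *Pdgfb* (Entrez 18591), which endothelial cells make, was not called, and its difference from its receptor's gene was not tested. It had 6.64 and 8.88 CPM in controls against 7.47 and 7.02 CPM in mutant libraries, where the control values enclose the others (log2 fold change −0.08, 95% interval −0.79 to 0.64, limma adjusted p = 0.974). *Pdgfa*, a ligand of PDGFRα made mainly by epithelium, rose from 85.2 ± 13.2 to 154.3 ± 3.76 CPM (SD, n = 2 each; log2 fold change 0.86, limma adjusted p = 0.00321). *Pdgfc*, which encodes another ligand of PDGFRα, had a log2 fold change of 0.40 that was not called (limma adjusted p = 0.437). Of the 5 genes of the PDGF list that were tested, 1 was called higher and 2 lower.

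A wider list of endothelial genes held 50 genes, of which 43 were in the table and 41 were tested. The genes not listed include *Nos3* and *Selp*. Of the 41 genes 24 were higher and 17 lower, the median log2 fold change was 0.07, and 2 were called, both lower. The sum over the 43 genes was 843.2 and 893.6 CPM in controls against 759.7 and 802.0 CPM in mutant libraries, lower without overlap. This sum includes the 2 called genes, *Fli1* and *Vcam1*, so its difference may rest on them, and a sum without them was not made. *Fli1* (Entrez 14247), an ETS transcription factor of endothelial and blood cells that neural crest mesenchyme also expresses, had 94.0 and 127.0 CPM in controls against 61.4 and 56.2 CPM in mutant libraries. It was the most abundant gene of the list, and its groups do not overlap (log2 fold change −0.88 ± 0.17 SE, limma adjusted p = 0.00665). *Vcam1* (Entrez 22329), an adhesion molecule of activated endothelium that mesenchyme also expresses, had 65.9 and 92.8 CPM in controls against 30.7 and 51.5 CPM in mutant libraries (log2 fold change −0.96 ± 0.21 SE, limma adjusted p = 0.0203). Without control replicate 2 neither gene was called, and the wider list held 0 calls. *Vcam1* was also not called with DESeq2 or without mutant replicate 1 (log2 fold changes without a library between −1.32 and −0.59 for *Vcam1* and between −1.10 and −0.67 for *Fli1*). Without control replicate 1 the list held 4 calls.

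*Cd34* (Entrez 12490), a sialomucin of capillaries and blood stem cells and the other of the 2 most abundant genes of the wider list, was not called, with 73.6 and 61.3 CPM in controls against 61.0 and 73.5 CPM in mutant libraries (log2 fold change −0.0039, 95% interval −0.37 to 0.36, limma adjusted p = 0.996). With limma's p left unadjusted, 5 of the 41 genes passed 0.05, of which *Fli1*, *Vcam1*, *Gata2* and *Rhoj* were lower and *Sele* was higher, the last 3 named after their values were seen. The part that expression outside endothelium has in the levels of *Fli1* and *Vcam1* was not tested.

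**Figure D3:**
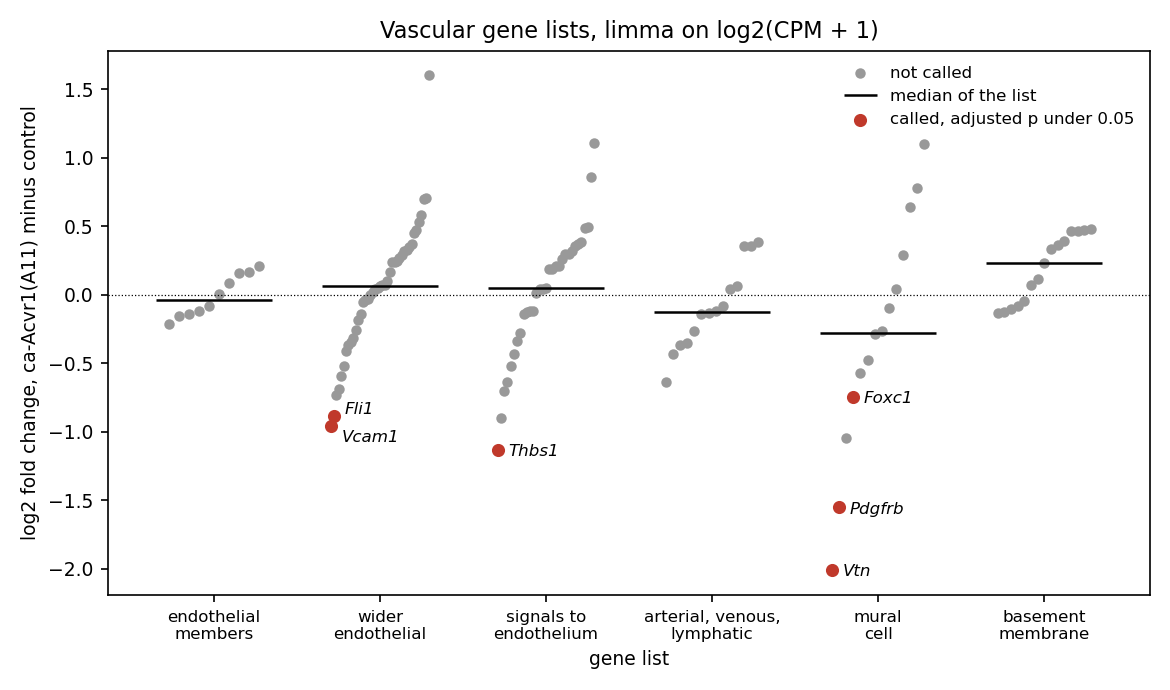
Log2 fold change of ca-Acvr1(A11) against control (vertical axis, limma on log2(CPM + 1), values as deposited) for each tested gene of 6 vascular lists, 1 point per gene, called genes in red and list medians as black lines. The endothelial members lie between −0.22 and 0.21, and all called genes of these lists are lower.

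Signals that reach endothelium were read from a list of VEGF, angiopoietin, apelin and Notch genes, of which 31 were tested and 1 was called. At an unadjusted p under 0.05 from limma 6 of the 31 passed, where 9.55% of all genes tested did. Of these *Hey1*, *Sema3e* and *Slit2* were higher and *Thbs1*, *Nrp2* and *Tgfb2* lower. All of them but *Thbs1* were named after their values were seen. *Vegfa* (Entrez 22339), the main growth factor of endothelium, had 41.9 and 39.5 CPM in controls against 49.0 and 44.0 CPM in mutant libraries. Both mutant values are higher, by an amount that did not pass the test (log2 fold change 0.19, 95% interval −0.21 to 0.58, limma adjusted p = 0.844). *Notch1*, a receptor that restrains sprouting, and *Hes1*, a target of Notch in many cell types, had log2 fold changes of 0.21 and −0.13 and were not called (limma adjusted p = 0.757 and 0.863). The gene called was *Thbs1* (Entrez 21825), which encodes thrombospondin 1, a matrix protein that restrains vessel growth. It had 28.6 and 47.9 CPM in controls against 21.2 and 12.6 CPM in mutant libraries (log2 fold change −1.13, limma adjusted p = 0.0330). The call was lost with a pseudocount of 0.1, with DESeq2 (adjusted p = 0.354 from DESeq2, with adjusted p from 3.22e-05 to 0.512 over the alternatives) and without control replicate 2 or mutant replicate 2, with log2 fold changes between −1.49 and −0.77 without a library.

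Of the arterial, venous and lymphatic list 14 genes were tested, 0 were called from limma, edgeR, limma-voom or DESeq2, and 4 had an unadjusted p under 0.05 from limma. The median log2 fold change was −0.13. Its 2 most abundant genes, *Nr2f2*, a factor of venous identity that facial mesenchyme also expresses, and *Pdpn*, a glycoprotein of lymphatic endothelium and of epithelium, had log2 fold changes of −0.35 and 0.36 (limma adjusted p = 0.361 and 0.498). The vascular basement membrane list had 15 genes tested and 0 called by any of these 4 tools, with 2 at an unadjusted p under 0.05 from limma and a median of 0.23. Those 2 were *Sparc* and *Itga6*, the latter named after its values were seen. Of the 2 most abundant genes of the list, *Sparc*, a matrix glycoprotein, had a log2 fold change of 0.39 (limma adjusted p = 0.317) and *Col4a1*, a chain of the collagen of vessel walls and other basement membranes, one of −0.12 (limma adjusted p = 0.861). Without control replicate 1 *Sparc* was called higher, at 0.49.

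The mural cell list, which covers pericytes and smooth muscle around vessels, had 14 genes tested, of which 5 were higher and 9 lower. The 3 called were all lower, and *Abcc9* (lower) and *Acta2* (higher, log2 fold change 1.10, limma adjusted p = 0.341), both named after their values were seen, were the others at an unadjusted p under 0.05 from limma. The list had a median of −0.28 and sums of 444.6 and 468.4 CPM in controls against 279.8 and 307.3 CPM in mutant libraries. With the whole-read values of *Pdgfrb* the mutant sums were 289.8 and 317.3 CPM. These sums include *Pdgfrb*, which was taken up for its fall, and *Foxc1*, the most abundant gene of the list. Their difference may rest on these genes, and a sum without them was not made. Apart from *Pdgfrb* the genes called were *Foxc1* (Entrez 17300), a transcription factor of pericyte precursors that neural crest mesenchyme also expresses, from 215.0 ± 9.21 to 127.9 ± 8.33 CPM (SD, n = 2 each; log2 fold change −0.75, limma adjusted p = 0.00608), and *Vtn* (Entrez 22370), which encodes vitronectin. *Vtn* had 11 and 16 reads in control and 3 and 1 reads in mutant libraries (log2 fold change −2.01, limma adjusted p = 0.0247). Its call was lost with a pseudocount of 0.1, with DESeq2 (adjusted p = 0.716 from DESeq2, with adjusted p from 0.00262 to 0.716 over the alternatives) and without control replicate 2 or mutant replicate 2, with log2 fold changes between −2.32 and −1.71 without a library. *Foxc1* was not called without mutant replicate 1, with log2 fold changes between −0.81 and −0.68 without a library. *Mcam*, an adhesion molecule that pericytes share with endothelium, had 54.7 and 46.6 CPM in controls against 44.4 and 50.1 CPM in mutant libraries (log2 fold change −0.10, limma adjusted p = 0.932).

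The other lists show what else moved in these libraries. In the mesenchyme list, of neural crest derived face, 11 of 16 genes were called lower and 0 higher, with a median log2 fold change of −0.86 and sums of 2361 and 2819 CPM in controls against 1362 and 1410 CPM in mutant libraries. Among the genes called were *Prrx1*, *Prrx2*, *Twist1*, *Twist2*, *Alx1*, *Alx4*, *Col1a1*, *Col1a2*, *Col3a1* and *Pax3*, with log2 fold changes from −1.42 for *Prrx2* to −0.71 for *Col3a1*, and *Tfap2b*, the other gene named, was at −0.45 (limma adjusted p = 0.152). With 1 library left out some of these were not called, *Twist1*, *Col1a1* and *Col3a1* without control replicate 2 and *Twist2*, *Col1a1* and *Col3a1* without mutant replicate 1, and these 4 were not called with DESeq2 either. Without control replicate 2 *Twist1* lay at −0.35 and *Col3a1* at −0.43. Both were also not called with a pseudocount of 0.1, nor was *Twist1* with at least 10 reads in every library. Per 100 CPM of this sum there were 8.16 and 6.90 CPM of the 10 endothelial genes in control and 14.7 and 12.9 CPM in mutant libraries. Whether this ratio reflects the numbers of cells was not tested.

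Blood cells, which vessels carry, were read from 3 lists. The erythroid list had 9 genes tested and 0 called by limma, edgeR, limma-voom or DESeq2, with 0 at an unadjusted p under 0.05 from limma. Its sum was 7054 and 8508 CPM in controls against 6730 and 7236 CPM in mutant libraries, most of it from *Hbb-y* (log2 fold change −0.17, limma adjusted p = 0.828) and *Hbb-bh1* (−0.15, limma adjusted p = 0.846), the globins of primitive red cells. *Hbb-bh1* was called lower without control replicate 1, at −0.43, and lay at 0.12 without control replicate 2. Per 1000 CPM of 3 embryonic globins there were 27.6 and 23.1 CPM of the endothelial genes in control and 30.1 and 25.6 CPM in mutant libraries, which overlap between groups. The platelet list had 5 genes tested and 0 called by any of the 4 tools, with 0 at an unadjusted p under 0.05 from limma, and *Pf4* and *Ppbp*, chemokines of platelets, had log2 fold changes of 0.05 and −0.23 (limma adjusted p = 0.972 and 0.913). The macrophage list had sums of 58.3 and 58.6 CPM in controls against 98.4 and 136.2 CPM in mutant libraries, with 12 of 12 genes higher. Of these 2 were called, *Cx3cr1* and *Mrc1* (log2 fold changes 1.04 and 1.34, limma adjusted p = 0.0143 and 0.0411). Neither was called with DESeq2 (adjusted p = 0.280 and 0.944 from DESeq2, and from 0.000373 to 0.402 for *Cx3cr1* and 0.00364 to 0.944 for *Mrc1* over the alternatives) or without mutant replicate 2, and *Mrc1* was also not called with a pseudocount of 0.1, with limma-voom or without control replicate 1 or mutant replicate 1. Macrophages can express *Pecam1*, and the part of these cells in its values was not tested.

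The epithelium list had 2 of 12 genes called, *Epcam* and *Cdh1*, both higher (log2 fold changes 0.72 and 0.78, limma adjusted p = 0.0264 and 0.0145), and a median of 0.61. *Epcam* was not called without mutant replicate 1 or 2, *Cdh1* not without control replicate 2 or mutant replicate 1, and neither with DESeq2. Of the neural list 0 of 11 genes were called by limma, edgeR, limma-voom or DESeq2, 6 had an unadjusted p under 0.05 from limma, 5 of them higher, and the median was 0.26, with *Sox2* at 0.50 and *Tubb3* at 0.16 (limma adjusted p = 0.0803 and 0.814). *Sox2* was called higher without control replicate 1, at 0.54, and with the replicate number as a block. The gene of the 6 that was lower was *Sox10*, named after its values were seen, with 19, 18, 5 and 7 reads (log2 fold change −1.44, limma adjusted p = 0.0926). Of the muscle list 0 of 3 genes were called by these 4 tools, with 0 at an unadjusted p under 0.05 from limma and a median of 0.25, and *Tnnt1* and *Myf5* were at 0.25 and −0.07 (limma adjusted p = 0.914 and 0.982).

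**Figure D4:**
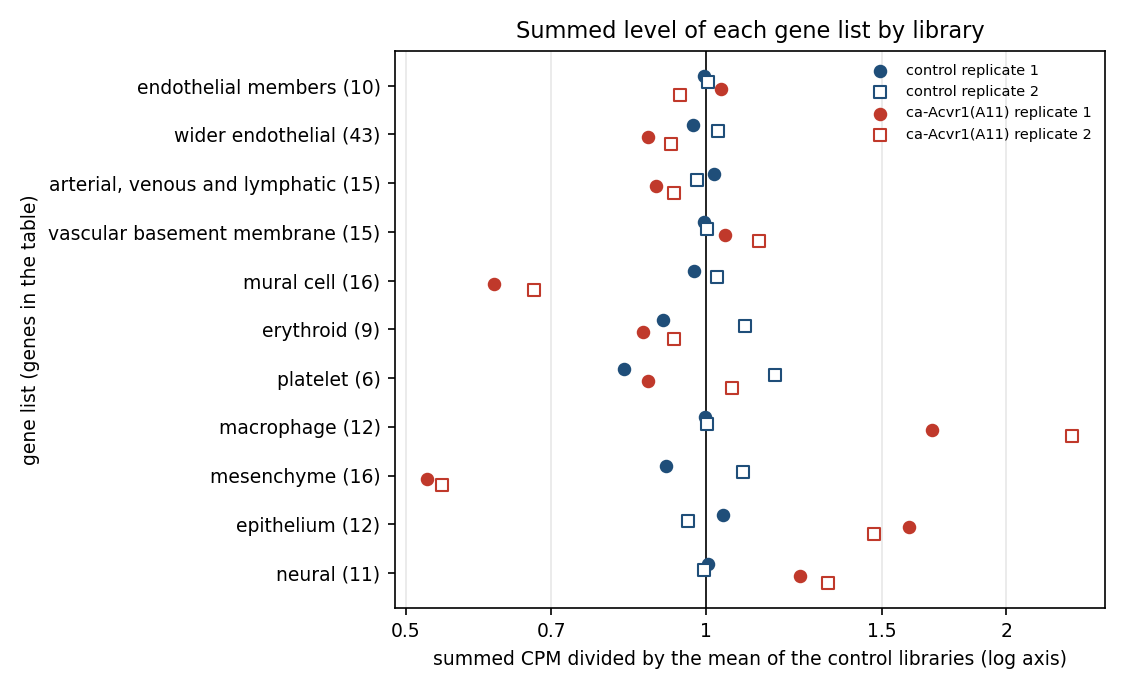
Summed CPM of the listed genes divided by the mean of the control libraries (log axis) for 11 gene lists, 1 point per library, control in blue and ca-Acvr1(A11) in red. The endothelial members lie between 0.943 and 1.04, while mesenchyme lies at 0.526 and 0.544 and macrophage at 1.68 and 2.33 in the ca-Acvr1(A11) libraries.

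The 10 endothelial genes lie on 7 chromosomes in the GENCODE annotation of GRCm38. *Kdr*, on chromosome 5 from 75932827 to 75978458, lies 734611 bases from *Pdgfra*, on the same chromosome from 75152292 to 75198215. These neighbors encode related receptor tyrosine kinases, and the 95% interval of the difference between their log2 fold changes lay below 0 with both sets of values. Since *Pdgfra* was taken up for its fall, this too is a description and not a test. *Cdh5* runs on chromosome 8 from 104101625 to 104144511 and *Pecam1* on chromosome 11 from 106654217 to 106750628. For 8 of the 10 genes no other annotated gene reaches the last exon of the longest coding transcript, where the kit collects most reads of a transcript. The last exon of *Egfl7*, on chromosome 2 from 26592418 to 26592684, lies within *Gm20532*, a gene on the same strand, and that of *Eng*, on chromosome 2 from 32681437 to 32682658, overlaps *Fpgs* on the other strand, so that their reads may not all be their own. *Egfl7* also holds *Mir126a*, which encodes the endothelial microRNA miR-126 and is not measured by this assay.

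The promoters of the endothelial genes were read for a sequence feature that the choice of genes did not use. ETS factors, the family of FLI1 and ERG, bind many endothelial regulatory regions at a GGAA core. RefSeq's promoters of GRCm38.p6 held 10 entries for 8 of the 10 genes, and *Pecam1* and *Cdh5* had none. The letters AGGAAG or CGGAAG were searched on both strands in the 250 bases before each start. They were found in 6 of the 10 entries, from 5 genes, *Egfl7*, *Eng*, *Emcn*, *Tie1* and *Flt1*, and in 39.2% of all 32851 promoters. A match of so few letters is a description and not a binding site. The 3 promoters below show how the matches lie, with each match in capitals, in the receptor genes *Flt1* and *Tie1* and in *Emcn*, read in the direction of transcription.
Flt1, chr5:147726012-147726261, minus strand: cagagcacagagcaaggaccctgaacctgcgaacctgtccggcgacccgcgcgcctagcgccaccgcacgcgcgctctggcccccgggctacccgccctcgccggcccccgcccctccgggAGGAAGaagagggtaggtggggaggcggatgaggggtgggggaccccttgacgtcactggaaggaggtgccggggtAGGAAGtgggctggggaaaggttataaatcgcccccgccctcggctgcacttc
Tie1, chr4:118489850-118490099, minus strand: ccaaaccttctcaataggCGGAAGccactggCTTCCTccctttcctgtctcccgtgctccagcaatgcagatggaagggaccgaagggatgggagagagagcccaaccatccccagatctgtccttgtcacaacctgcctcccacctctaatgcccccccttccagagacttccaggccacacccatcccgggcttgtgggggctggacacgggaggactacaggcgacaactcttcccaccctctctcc
Emcn, chr3:137340828-137341077, plus strand: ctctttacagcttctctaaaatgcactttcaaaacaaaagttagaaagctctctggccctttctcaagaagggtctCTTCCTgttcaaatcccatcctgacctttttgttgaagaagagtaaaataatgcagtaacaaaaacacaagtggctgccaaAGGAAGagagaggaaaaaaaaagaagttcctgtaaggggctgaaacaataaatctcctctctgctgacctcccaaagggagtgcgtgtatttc
In *Flt1* the matches begin 129 and 53 bases before the start, in *Emcn* 174 and 93 and in *Tie1* 232 and 219. None of these 3 genes was called, while *Fli1*, which encodes an ETS factor, was called lower. The data hold no measure of binding at these promoters.

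The genes whose pattern over the 4 libraries was nearest to the mean of the 10 endothelial genes were *Ap5m1*, *Zfand5* and *Fubp3*. Likeness was the root mean square difference of centred log2(CPM + 1) over the 4 libraries, among 6563 genes with a mean of at least 20 CPM, and it was 0.010, 0.012 and 0.014. The pattern they share is nearly flat, with a mean of 0.00 and 0.01 in control and 0.12 and −0.13 in mutant libraries on the log2 scale. *Ap5m1* had 31.7 and 31.96 CPM in controls against 34.9 and 28.5 CPM in mutant libraries (log2 fold change −0.01, limma adjusted p = 0.992), and *Zfand5* and *Fubp3* had log2 fold changes of −0.02 and −0.03 (limma adjusted p = 0.981 and 0.982). With 4 libraries such likeness is common, and 13.6% of the genes compared lay within 0.1 of the endothelial pattern.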

How the data were processed

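RNA from E11.5 NP tissues was extracted with TRIzol and sequenced from QuantSeq 3′ libraries (n = 2 per group). The authors deposited CPM values for 13577 genes in 4 columns, of which 0 were left unused. The submitters' processing notes name mm10, STAR, featureCounts 1.6.4 and DESeq2, and give no role or order for them; how CPM were made from reads is not stated. Values that were whole reads within 0.02 reads made up 99.92% of all values, and the reads behind them were recovered. The other 43 values, in 22 genes, were used as deposited, and 42 of them were also replaced by the nearest whole-read value with the same decimals.

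Because the values are CPM, limma 3.58.1 was the main test, on log2(CPM + 1), for genes with a mean above 1 CPM, with a trend of variance on mean and p adjusted after Benjamini and Hochberg over all genes tested, at a threshold of 0.05. Log2 fold changes on this scale understate the change of low genes. The smallest p that exact permutation of 2 against 2 libraries allows is 0.333. The alternatives were TMM, RLE and upper-quartile scaling, pseudocounts of 0.1 and 5, no filter, at least 10 reads in every library, no trend, edgeR 4.0.16 (quasi-likelihood test), DESeq2 1.42.0 and limma-voom on the recovered reads, the whole-read values, the 22 genes left out, a replicate block and each library left out. edgeR on the recovered reads called 133 genes. edgeR on the whole-read values and the intervals of differences between genes were chosen after the data were seen. Computations used R 4.3.3 and Python 3.11.15 (matplotlib 3.10.9, scipy 1.17.1, pandas 2.3.3 and numpy 2.4.6). The test was tested on simulated data.

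The genes named were the 10 endothelial genes, *Pdgfa*, *Pdgfb*, *Pdgfra*, *Pdgfrb*, *Vegfa* and *Acvr1*, every called gene and the 2 tested genes with the highest mean of each other list, and the 3 genes nearest in pattern. The members and the lists, written by hand, were chosen with earlier results of these data known. Gene models are from GENCODE's annotation of GRCm38 and promoters from RefSeq (GRCm38.p6). One gene that the plan would name is not reported here, and the counts and sums of the lists are those of the plan.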

Additional observations from a re-analysis of the deposited data

How the results depend on the processing

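None of the 10 endothelial genes was called at an adjusted p under 0.05 in any of the 20 settings run that tested it, with limma, limma-voom, edgeR or DESeq2 (*Cldn5* and *Eng* were tested in 16 of them), and 0 passed an unadjusted p under 0.05 from limma in the main setting. Over all settings the lowest limma adjusted p was 0.618, for *Emcn* without control replicate 1. This does not show that their levels were equal, since the 95% intervals of the main setting span at least 0.38 on the log2 scale to either side. With all 4 libraries 9 of the 10 genes kept the sign of their log2 fold change over the settings that tested them, and *Cldn5* went from 0.00 to −0.018 with TMM scaling, −0.017 with RLE scaling, −0.026 with upper-quartile scaling and −0.013 with a pseudocount of 0.1. *Pf4* was at −0.00093 with DESeq2. The number of genes called among all genes tested was 112, and it was 0 without a mean-variance trend, 39 with DESeq2, 229 with the replicate block and between 93 and 465 with a library left out. The labels do not say whether libraries with the same replicate number are paired. The differences between replicates of the 2 groups correlated at 0.067 across genes. This cannot decide the question, since a shared litter or batch may move few genes. Under the replicate block 0 of the 10 endothelial genes were called. The wider endothelial list held 2 called genes, and 0 without a trend, 1 with DESeq2 and between 0 and 4 with a library left out. Its median log2 fold change of 0.07 was 0.037 with TMM scaling, 0.038 with RLE scaling, 0.027 with upper-quartile scaling, −0.033 with at least 10 reads in every library, 0.040 with edgeR, 0.041 with DESeq2, 0.039 with limma-voom and 0.040 with edgeR on the whole-read values, an alternative chosen after seeing the data, and between −0.034 and 0.17 with a library left out. The cause of these moves was not tested.

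The median log2 fold change of the 10 endothelial genes, −0.041 in the main setting, was −0.066 with TMM, −0.065 with RLE and −0.075 with upper-quartile scaling. It was −0.10 with at least 10 reads in every library, −0.091 with edgeR, −0.11 with limma-voom and −0.030 with a pseudocount of 5. With a library left out, where the lone library of a group is assumed to vary like the other group, the median of the endothelial genes lay between −0.19 and 0.042. The log2 fold change lay between −0.20 and 0.030 for *Kdr*, −0.47 and 0.034 for *Tek*, −0.48 and 0.23 for *Tie1*, −0.38 and 0.07 for *Emcn*, −0.42 and 0.42 for *Cldn5* and −0.33 and 0.65 for *Eng*. It also changed sign for genes that were not called, and lay between −0.26 and 0.11 for *Pdgfb*, −0.77 and 0.11 for *Acvr1*, −0.14 and 0.13 for *Cd34*, −0.27 and 0.023 for *Hes1*, −0.21 and 0.017 for *Mcam*, −0.43 and 0.12 for *Hbb-bh1*, −0.19 and 0.28 for *Pf4*, −0.59 and 0.12 for *Ppbp*, −0.0045 and 0.33 for *Tubb3*, −0.030 and 0.52 for *Tnnt1*, −0.15 and 0.13 for *Ap5m1*, −0.14 and 0.10 for *Zfand5* and −0.16 and 0.11 for *Fubp3*. None of the named genes that were called changed sign under any alternative run. Depth limits *Cldn5* and *Eng* most, with at most 10 reads in a library.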
